A study of Mus musculus with 37 samples.

Results

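The early proximal tubule of the embryonic mouse kidney was set against the S-shaped body, the curved epithelial tube from which it forms, across all genes measured at embryonic day E15.5. The arrays were chosen by the source named in their labels, 2 of proximal tubule and 4 of S-shaped body. They came from 37 Affymetrix arrays of 9 kidney components. No measured value decided which arrays entered, but the comparison and the gene lists were chosen with earlier results of these data known. Both groups were wild-type embryos of the outbred CD-1 strain, of sex labelled unknown, with no treatment, so that they share genotype, strain and age and differ in the structure captured. Each array held 1 pool of laser-captured tissue, about 50 sections taken from 5 kidneys, whose RNA went through 2 rounds of amplification. The labels do not say which animals went into a pool, so pools of the same or of different structures may share embryos. The fit takes pools as independent and uses no pairing, so p-values measure the spread between pools and not between animals. This spread is shared over all 9 components, so most of it comes from structures other than the 2 compared. A gene whose 2 proximal tubule arrays differ widely can still be called, as Acsm1 was (15.20 and 8.98, standard error 0.87). The p-values may be too small where pools of 1 structure share embryos. Only 2 arrays of proximal tubule exist in the series, which limits the precision of every value given here.

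The proximal tubule is the first and longest reabsorbing segment of the nephron. Its cells carry a brush border, take up filtered proteins through the receptors megalin and cubilin, and recover glucose, amino acids and phosphate with transporters driven by the sodium gradient. They also make glucose, and they secrete organic anions, cations and drugs. The S-shaped body comes before it: its cells divide, Notch signalling takes part in setting the proximal fate, and the tube is divided into future podocytes, proximal tubule, loop and distal tubule.

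Values are log2 signal, that is the deposited signal plus an offset, on the log2 scale after quantile normalization. Where all or most arrays of 1 group lay below 7.89, the level that a probe set had to pass on at least 2 arrays, the size of a difference depends on that offset and sizes of different genes have no order. With a smaller and a larger offset Ttr was at 8.13 and 7.41, Ugt2b37 at 8.02 and 7.23, and Ndnf at -7.79 and -6.96, all called. Of 9 proximal tubule markers analysed, 7 were called higher in the proximal tubule arrays by limma, where a call needed a change of at least 1 on the log2 scale and an adjusted p below 0.05. Of 9 S-shaped body markers, 3 were called lower, or 5 without S-shaped body replicate 3. That library stands apart from its group and goes against its label. Its closest array across genes was renal corpuscle replicate 1 (Pearson r = 0.846), against 0.812 to 0.828 with its own group (genes are not independent replicates). Lhx1, a homeobox gene that marks the S-shaped body, was at 5.51 in it, against 11.90 to 12.86 in S-shaped body replicates 1, 2 and 4. The slit diaphragm gene Nphs1 was at 12.27 in it, against 7.64 to 7.69 in the other 3, and many proximal tubule genes were also high in it, as given beside each result. The 2 proximal tubule arrays differed too: their median absolute difference per gene was 0.97, and 3084 of 15709 genes differed by more than 2 between them. They correlated at 0.791 with each other, while proximal tubule replicate 2 was closest to ureteric tip replicate 3, at 0.836. Proximal tubule replicate 2, ureteric tip replicate 3 and S-shaped body replicate 2 share a date code in their titles, whose meaning the labels do not give. The median deposited signal was 182 to 204 in proximal tubule arrays and 167 to 259 in S-shaped body arrays. A sign of RNA quality moved with the groups: the 3′ over 5′ signal ratio of the Actb control probe sets was 10.8 and 24.1 in proximal tubule arrays, against 7.84, 3.6, 6.38 and 6.49 in S-shaped body replicates 1 to 4, without overlap. In the remaining E15.5 components the Actb ratio was 2.54 to 8.40, and in the E11.5 and E12.5 components it was 10.9 to 35.7. For Gapdh the ratio was 39.4 and 48.7 in proximal tubule arrays, against 55.9, 34.1, 26.4 and 18.7 in S-shaped body arrays, with overlap. The part of RNA quality in the results was not tested beyond a fit that included the Actb ratio, given with the counts of called genes.

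Of 15709 genes tested, 1557 were called (9.91%), 886 of them higher in the proximal tubule (5.64%) and 671 lower (4.27%). A difference of at least 8-fold was measured for 345 of the genes called higher and 148 of those called lower. The ranges of the 2 and 4 arrays did not overlap for 4107 genes (26.1%), 2402 of them higher (15.3%) and 1705 lower (10.9%) in proximal tubule, and 1390 of the called genes were among these. The median log2 fold change over all genes was 0.08. A gene could pass the filter through the 2 proximal tubule arrays alone, so genes high only there could enter the test. With a stricter filter 742 genes were called higher and 663 lower. Omission of S-shaped body replicate 3 gave 1725 calls, or 11% of the genes tested, with 934 higher (5.95%) and 791 lower (5.04%). With proximal tubule replicate 1 left out 876 genes were called, and with replicate 2 left out 1745. The fit then takes the spread of the lone proximal tubule array from the other components, and 226 genes were called higher and 103 lower under both omissions. A fit that included the Actb ratio, added once its values were known, called 645 genes higher and 473 lower. Within the shared title date code there was 1 pair of arrays, proximal tubule replicate 2 and S-shaped body replicate 2. Of the 886 genes called higher, 875 were higher in that pair, and of the 671 called lower, 663 were lower, though both arrays of the pair also entered the fit. With the date code as a fixed term, in a fit of only the arrays whose titles hold such a code, 17 genes were called higher and 64 lower.

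**Figure D1:**
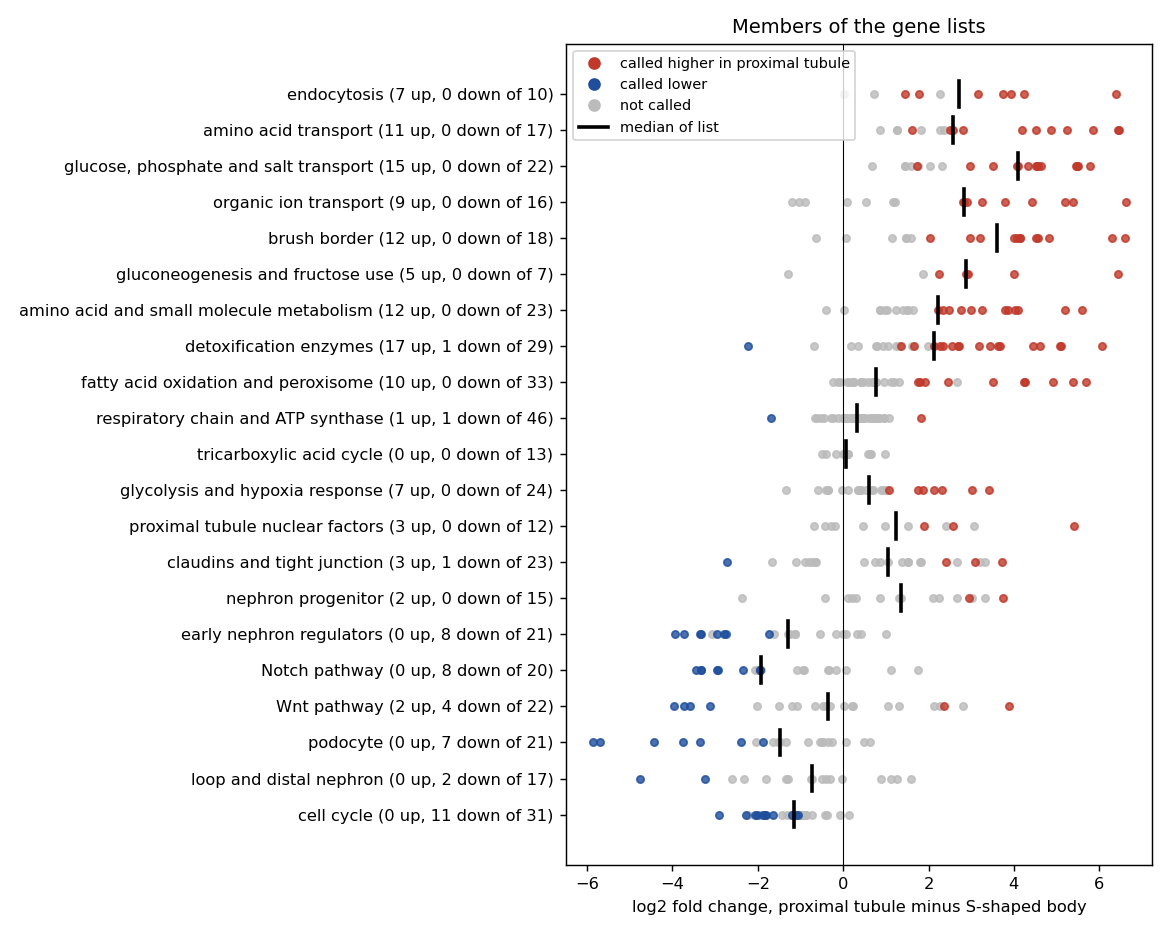
Each point is 1 gene of a list (rows), placed by its log2 fold change of proximal tubule minus S-shaped body (horizontal axis). Red points were called higher, blue points lower and grey points not called, and black bars are list medians. Transport, brush border and detoxification lists lie mostly to the right (medians 2.13 to 4.08), and the Notch list has its median at -1.93.

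Receptors of protein uptake rose in the proximal tubule. Cubn, which encodes the scavenger receptor cubilin, had 15.59 and 14.43 in proximal tubule replicates 1 and 2, against 7.79, 7.21, 13.70 and 5.78 in S-shaped body replicates 1 to 4. The proximal tubule arrays lay above the other 4 without overlap, but S-shaped body replicate 3 came within 1 unit of proximal tubule replicate 2 while the other 3 were over 6 units lower. Cubn rose by 6.39 (SE 1.24, adjusted p = 0.000652), and by 8.08 without S-shaped body replicate 3. Lrp2, the megalin gene, had 15.31 and 12.57 in proximal tubule, against 10.17, 8.95, 13.97 and 10.03 in S-shaped body. Here the groups overlapped through S-shaped body replicate 3, and Lrp2 rose by 3.16 (SE 1.02, adjusted p = 0.0411), or by 4.22 without that array. Amn, which anchors cubilin at the membrane, had 15.38 and 15.62, against 11.71, 11.48, 12.48 and 10.63, and rose by 3.93 (adjusted p = 0.00997). Folr1, the folate receptor, had 13.54 and 13.83, against 9.65, 8.94, 9.03 and 10.22. In Folr1 S-shaped body replicate 3 did not stand above its group, and the rise was 4.23 (SE 0.60, adjusted p = 9.21e-06). Fcgrt, the receptor that rescues immunoglobulin G and albumin from degradation, rose by 3.74. The adaptor gene Dab2 overlapped between the groups, with 14.62 and 12.56 in proximal tubule against 9.39, 11.68, 13.20 and 11.02, and was not called (adjusted p = 0.0598); 1 of 4 probe sets was called higher. Of 10 listed genes of endocytosis, all measured, 7 rose and none fell, with a median of 2.71; 3 were called without proximal tubule replicate 1 and 4 without S-shaped body replicate 4. Without proximal tubule replicate 1 the calls of Amn (4.05) and Lrp2 (1.79) ended, and that of Amn also without replicate 2 (3.81). The call of Lrp2 also ended without S-shaped body replicate 1 (2.96), 2 (2.55) or 4 (2.91), while Dab2 was called without S-shaped body replicate 3 (2.89) or proximal tubule replicate 2 (3.29).

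Of 17 measured genes of amino acid transport, 11 rose and none fell (median 2.57), and 5 rose without proximal tubule replicate 1. Slc3a1, the heavy chain of the cystine and basic amino acid carrier, had 15.40 and 14.20 in proximal tubule against 7.18, 7.93, 11.06 and 7.23 in S-shaped body, and rose by 6.45 (SE 0.81, adjusted p = 1.85e-06). Its partner light chains also rose, Slc7a9 by 4.86 and Slc7a13 by 5.85. Slc7a13, a carrier known from the last part of the adult proximal tubule, had 14.10 and 12.49, against 5.71, 6.55, 12.07 and 5.45. Both its proximal tubule arrays were above all S-shaped body arrays, of which replicate 3 stood more than 5 units above the other 3. The neutral and proline carriers Slc6a20b and Slc6a18 rose by 5.23 and 4.51, and the glutamate carrier Slc1a1 by 2.57. Slc6a20b had 13.19 and 12.61 in proximal tubule, against 7.61, 7.73, 8.19 and 7.15, without overlap. The peptide carrier Slc15a2 had 15.38 and 15.04, against 10.97, 9.69, 7.53 and 6.80, and rose by 6.47 (SE 1.73, adjusted p = 0.0125); with 1 proximal tubule array it was not called (6.29 without replicate 1 and 6.64 without replicate 2). Slc7a9 was not called without proximal tubule replicate 1 (3.82). Slc1a1 was not called without either tubule array (1.99 without replicate 1, 3.15 without replicate 2) or S-shaped body replicate 2 (1.69) or 4 (2.32). Slc43a2, a carrier of neutral amino acids, overlapped between the groups at 2.36 (adjusted p = 0.109) and was called without S-shaped body replicate 3 (3.03).

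Carriers of glucose, phosphate, sulfate and other solutes gave the list with the highest median, 4.08. Slc34a1, the main phosphate carrier of the brush border, had 14.16 and 14.02 in proximal tubule, against 8.49, 7.72, 12.82 and 9.21 in S-shaped body, and rose by 4.53 (SE 0.88, adjusted p = 0.000661). The sodium-glucose carriers Slc5a2 and Slc5a1, known from the early and the late proximal tubule of the adult, rose by 4.07 and 5.50. Slc5a1 had 14.49 and 13.88 in proximal tubule, against 5.55, 8.80, 12.01 and 8.40. Slc2a2, through which glucose leaves the cell on the blood side, had 14.78 and 13.64, against 11.54, 11.30, 12.65 and 12.11. The groups did not overlap, yet the difference of 2.31 (SE 1.15) was not called (adjusted p = 0.21). The dicarboxylate carrier Slc13a3 had 13.30 and 11.45, against 5.98, 7.33, 7.18 and 7.13, and rose by 5.47 (adjusted p = 6.49e-07). The vitamin C carrier Slc23a1 and the phosphate and urate carrier Slc17a1 rose by 5.47 and 5.79. The water channel gene Aqp1 rose by 4.33, and Pdzk1, a scaffold that holds carriers at the brush border, by 3.51. The call of Pdzk1 ended without proximal tubule replicate 1 (3.31). Of 22 measured members 15 rose and none fell, and 16 rose without S-shaped body replicate 3.

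Secretion of organic ions was represented by 16 measured genes, of which 9 rose and none fell (median 2.82); 4 rose without proximal tubule replicate 1. Slc22a2, the cation uptake carrier of the blood side, had 14.91 and 13.995 in proximal tubule against 6.72, 6.61, 12.10 and 5.90 in S-shaped body, and rose by 6.62 (SE 1.03, adjusted p = 3.67e-05). Its S-shaped body replicates 1, 2 and 4 were within 1 unit of each other and replicate 3 was over 5 units higher. The anion uptake carrier Slc22a6 had 14.28 and 14.10, against 7.53, 8.17, 10.92 and 9.34, and rose by 5.20. Slc22a13 and the related Slc22a19, also anion carriers, rose by 5.37 and 6.45, and Slco1a6, of the organic anion transporting polypeptide family, by 4.43. Slc22a19 had 14.30 and 13.61 in proximal tubule against 5.37, 5.31, 13.30 and 6.03, so that S-shaped body replicate 3 lay just below the tubule arrays. Slco1a6 lost its call without proximal tubule replicate 1 (3.49). The efflux pump Abcc4 had 11.495 and 7.73, against 11.07, 11.44, 9.15 and 11.61, with overlap and no call (adjusted p = 0.527).

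Brush border genes rose in 12 of 18 measured members, and none fell (median 3.60). Cdhr2, a cadherin that links the tips of microvilli, had 13.62 and 13.34 in proximal tubule, against 5.82, 6.98, 9.95 and 5.99 in S-shaped body, and rose by 6.29 (SE 1.04, adjusted p = 8.72e-05). Its relative Cdhr5 rose by 3.20, the microvillus core protein Vil1 by 4.52, and the motor Myo7b and the scaffold Ush1c, both of the same tip complex, by 4.15 and 4.00. The meprin peptidase genes Mep1b and Mep1a rose by 6.60 and 4.56. Mep1b had 15.20 and 14.70, against 5.68, 5.49, 14.20 and 8.01, and S-shaped body replicate 3 lay over 6 units above the next array of its group. The dipeptidase gene Dpep1 had 12.23 and 12.48, against 7.91, 7.99, 6.97 and 7.29, with S-shaped body replicate 3 the lowest of its group. Dpep1 rose by 4.81 (SE 0.58, adjusted p = 9.05e-07). Ezr, which ties the membrane to actin, was at 13.71 and 11.94 in proximal tubule against 13.37, 12.94, 13.73 and 13.74, and was not called; this was 1 of 2 probe sets, and the other was called higher. Mep1a (4.04) and Cdhr5 (2.51) were not called without proximal tubule replicate 1, nor was Ush1c without replicate 2 (3.43) or Cdhr5 without S-shaped body replicate 2 (2.40).

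**Figure D2:**
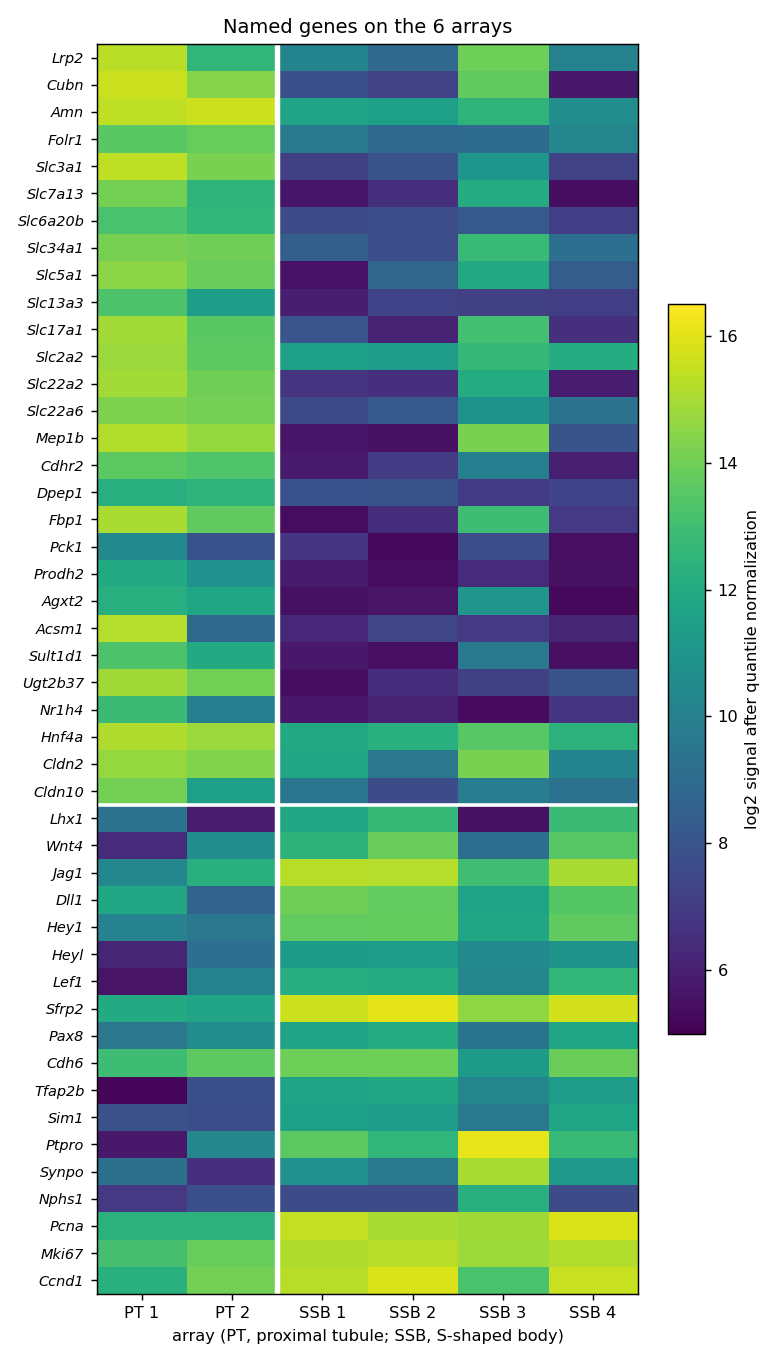
The colour gives log2 signal of named genes (rows) on the 2 proximal tubule arrays (PT, left) and 4 S-shaped body arrays (SSB, right). Above the horizontal line are proximal tubule genes and below it regulators, podocyte genes and cell cycle genes; S-shaped body replicate 3 is bright in most upper rows, as in Cubn at 13.70, and dark at Lhx1, at 5.51.

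Of 7 measured genes of gluconeogenesis and fructose use 5 rose and none fell, or 3 without proximal tubule replicate 1. Fbp1, the gluconeogenic fructose bisphosphatase, had 15.02 and 13.71 in proximal tubule, against 5.38, 6.48, 12.94 and 6.91 in S-shaped body, and rose by 6.44 (SE 1.21, adjusted p = 0.000416). Pcx, pyruvate carboxylase at the entry of the pathway, rose by 4.01. Pck1, the cytosolic enzyme that controls its rate, had 10.50 and 7.91 in proximal tubule against 6.82, 5.28, 7.71 and 5.46, and rose by 2.89 (SE 0.66, adjusted p = 0.00328). Its mitochondrial form Pck2 had 10.48 and 12.06, against 12.70, 11.94, 13.09 and 12.51, with overlap and an adjusted p of 0.0601. Without proximal tubule replicate 1 Pck1 was not called (1.59), and without proximal tubule replicate 2 Pck2 was called lower (-2.08). Pck2 was also called lower without S-shaped body replicate 2 (-1.50). Among 23 measured genes of amino acid and small molecule metabolism 12 rose and none fell (median 2.22), or 6 without proximal tubule replicate 1. They included Prodh2, which breaks down hydroxyproline, Agxt2, an aminotransferase, and Miox, which opens the ring of inositol. Prodh2 had 11.98 and 10.81 in proximal tubule against 5.82, 5.39, 6.43 and 5.53, without overlap, and rose by 5.60 (SE 0.58, adjusted p = 7.15e-08). Agxt2 rose by 5.19 and Miox by 4.03. Keg1, a glycine acyltransferase relative, rose by 4.09, and Bhmt was at -0.39 with no call, while its neighbour in the family Bhmt2 rose by 6.35; both handle methyl groups from betaine or methionine derivatives.

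Fatty acid oxidation genes split. Of 33 measured, 10 rose and none fell, with a median of 0.76 against 0.08 over all genes, and 2 rose without proximal tubule replicate 1. The peroxisomal oxidase Hao2 had 14.81 and 13.41 in proximal tubule, against 5.61, 7.24, 13.42 and 7.38 in S-shaped body, and rose by 5.70 (adjusted p = 0.00239). S-shaped body replicate 3 reached the level of proximal tubule replicate 2. Acsm1, a medium-chain acyl-CoA synthetase, had 15.20 and 8.98, against 6.35, 7.38, 6.92 and 6.22, and its rise of 5.38 rested on proximal tubule replicate 1, without which it was 2.26 and not called. The fatty acid importer Slc27a2 and the peroxisomal thiolase Acaa1b rose by 4.91 and 4.25. Hao2 (5.00), Slc27a2 (3.85) and Acaa1b (4.16) were not called either without proximal tubule replicate 1, and Slc27a2 was not called without S-shaped body replicate 1 (3.90), 2 (4.64) or 4 (4.71). Several mitochondrial enzymes of the same list, though not all, were not called: Hadha was at 0.73, Acadm at 0.76, Cpt1a, which controls entry of fatty acids, at 0.41 and Etfa, an electron carrier, at -0.24. In the respiratory chain and ATP synthase list 1 of 46 measured genes rose, Cox8a by 1.83, and 1 fell, Sdhd by 1.69, with a median of 0.32. At an unadjusted p under 0.05, 13 of these 46 were higher and 2 lower, where 13.6% of all genes tested were higher and 11.1% lower at that p. Cox8a was not called without proximal tubule replicate 1 (1.59) nor Sdhd without replicate 2 (-0.45). None of 13 tricarboxylic acid cycle genes was called by limma (median 0.07); Ogdh had the largest difference, 0.98 (adjusted p = 0.182), and 2 were higher at an unadjusted p under 0.05. Glycolysis and hypoxia response genes rose in 7 of 24, with Aldoc at 3.02, the glucose carrier Slc2a3 at 3.42 and the mitophagy gene Bnip3 at 2.31. Vegfa, a hypoxia target and endothelial growth factor, was at -1.35 with no call, though 1 of its 2 probe sets was called lower. Only 4 of this list were called without S-shaped body replicate 1 or 3, 3 without proximal tubule replicate 1 and 2 without replicate 2. Bnip3 (1.79) and Slc2a3 (3.40) lost their calls without proximal tubule replicate 1, Aldoc (2.59) and Slc2a3 (3.44) without replicate 2, and Slc2a3 without S-shaped body replicate 3 (2.54).

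Detoxification enzymes rose in 17 of 29 measured genes, and 1 fell (median 2.13); without proximal tubule replicate 1, 5 rose. Sult1d1, a sulfotransferase, had 13.27 and 12.05 in proximal tubule, against 5.77, 5.46, 9.65 and 5.47 in S-shaped body, and rose by 6.07 (SE 0.85, adjusted p = 8.41e-06). The glucuronosyltransferase Ugt2b38 rose by 4.60, and a relative outside the list, Ugt2b37, was measured as well: it had 14.84 and 14.05, against 5.44, 6.48, 7.17 and 7.95, and rose by 7.69 (SE 0.67, adjusted p = 2.83e-09). S-shaped body replicate 3 did not stand out in it. Ugt2b genes are closely alike in sequence, so probes for 1 of them may also bind transcripts of another. Nat8, which acetylates cysteine conjugates, and the glutathione transferase Gsta2 rose by 5.08 and 5.10, and Gsta2 was not called without proximal tubule replicate 1 (3.61). Cyp2d26, a cytochrome P450, rose by 6.70. Cyp4b1, another P450, fell by 2.22 (adjusted p = 0.0344), a call that ended without S-shaped body replicate 1 (-2.14) or 3 (-1.62) or proximal tubule replicate 2 (-1.42).

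The nuclear factors of the proximal tubule were less uniform: 3 of 12 measured rose and none fell (median 1.24), or 1 without proximal tubule replicate 1. Nr1h4, the bile acid receptor FXR, had 12.83 and 9.95 in proximal tubule, against 5.72, 6.08, 5.33 and 6.78 in S-shaped body, and rose by 5.41 (SE 0.67, adjusted p = 1.35e-06). None of its S-shaped body arrays, replicate 3 included, was above 7. Vdr, the vitamin D receptor, rose by 2.57 and Esrra, which drives genes of oxidative metabolism, by 1.90. Hnf4a, a nuclear receptor required for proximal tubule formation, had 15.13 and 14.78, against 11.98, 12.28, 13.53 and 12.39. The difference of 2.41 (SE 1.05) was not called (adjusted p = 0.143), although the groups did not overlap; 1 of its 3 probe sets was called higher. Esrrg was at -0.68 with no call. Vdr was not called without proximal tubule replicate 1 (2.60) or 2 (2.55) or S-shaped body replicate 1 (2.09), and Esrra not without proximal tubule replicate 1 (1.89).

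The letters CAAAGTCCA, a sequence that Hnf4a binds, were searched on both strands in the RefSeq promoters of build GRCm38.p6, which span 250 bases before to 50 after each gene's start. A promoter was on hand for 693 genes called higher, 532 called lower and 12566 of all genes tested. The match was found in 12 genes called higher (1.73%), in none of those called lower and in 73 of all genes (0.581%). Counted by promoter, it was in 0.483% of the 15944 promoters of the genes tested. Other letters searched were TATAAA, the TATA box, and GTGGGAA, which the Notch effector RBPJ binds. TATAAA was in 13.85% of genes called higher, 10.53% of those called lower, 10.2% of all genes and 8.57% of the promoters of the genes tested. GTGGGAA was in 9.09%, 7.89%, 7.49% and 6.36% of the same sets. The 12 genes included the carrier subunit Slc3a1, the aminotransferase Agxt2, the acetyltransferase Nat8 and the scaffold Pdzk1. A match is a description of these letters and not evidence of binding. The 3 windows around the match in the genes named by rule are shown, because all 3 genes rose; capitals mark the match, in Nat8 on the opposite strand. They lie at chr17:85028248-85028376 (plus strand), chr15:10358452-10358580 (plus strand) and chr6:85832230-85832337 (minus strand).
Slc3a1: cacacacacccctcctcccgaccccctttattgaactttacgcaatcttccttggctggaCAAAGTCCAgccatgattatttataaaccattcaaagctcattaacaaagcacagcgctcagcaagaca
Agxt2: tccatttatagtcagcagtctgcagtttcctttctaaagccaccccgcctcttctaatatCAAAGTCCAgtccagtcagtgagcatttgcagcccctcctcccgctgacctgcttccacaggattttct
Nat8: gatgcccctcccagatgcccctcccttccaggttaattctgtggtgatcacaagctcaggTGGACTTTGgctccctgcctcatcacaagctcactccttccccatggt

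Genes of secreted proteins, better known from the liver, were among the genes called higher, and several differed widely between the 2 proximal tubule arrays. Ttr, the thyroid hormone and retinol carrier transthyretin, had 16.34 and 12.63 in proximal tubule, against 7.21, 6.38, 6.56 and 6.42 in S-shaped body, and rose by 7.84 (SE 1.11, adjusted p = 8.7e-06). Afp, fetal albumin-like alpha-fetoprotein, had 16.63 and 15.47, against 9.53, 8.47, 15.02 and 5.18, and rose by 6.50 (adjusted p = 0.00961). Both proximal tubule arrays were high in these genes, and in Afp S-shaped body replicate 3 was high as well. Apoa1, the main protein of high density lipoprotein, had 16.72 and 8.34, against 6.41, 5.47, 7.15 and 5.83, and the fibrinogen chain Fgb 15.49 and 5.34, against 5.45, 6.12, 5.41 and 5.59. In Fgb proximal tubule replicate 2 was no higher than the S-shaped body arrays. Apoa1 and Fgb were chosen after their values were seen, as was a list of 20 liver secreted and apolipoprotein genes, which gets no test. Of these 20, 12 were called higher and 1 lower, where 5.64% of all genes were called higher and 4.27% lower. Because the members were chosen by their values, these counts are a description only. Their median log2 fold change was 0.56 with replicate 2 as the lone proximal tubule array and 5.59 with replicate 1 alone. The median log2 signal of the 20 was 13.21 and 8.25 in proximal tubule replicates 1 and 2, against 7.19 to 7.70 in S-shaped body. Alb, albumin, was at 13.54 and 8.95, against 7.65, 8.27, 8.45 and 8.66, and was not called (adjusted p = 0.0711), though it was without proximal tubule replicate 2 (5.28). Cfi, complement factor I, and Spp2, a secreted phosphoprotein, rose by 6.71 and 6.63 and were over 13 on both proximal tubule arrays. Without proximal tubule replicate 1, Afp (5.92), Apoa1 (2.13) and Fgb (-0.31) were not called.

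In the other direction, 8 of 20 measured Notch pathway genes fell in the proximal tubule, among them ligands, receptors and targets. The ligand gene Jag1 had 10.30 and 12.26 in proximal tubule, against 15.25, 15.20, 12.96 and 15.03 in S-shaped body, and fell by 3.33 (SE 0.61, adjusted p = 0.000325). All S-shaped body arrays were above both tubule arrays, with S-shaped body replicate 3 about 2 units below the rest of its group. The ligand gene Dll1 had 11.84 and 8.68, against 13.996, 13.75, 11.66 and 13.49, and fell by 2.96 (adjusted p = 0.0205), although S-shaped body replicate 3 lay below proximal tubule replicate 1. Among the receptors, Notch1 fell by 1.94 and Notch4 by 1.96, while Notch2, the receptor known to be needed for proximal fate, was not called. It had 13.88 and 13.32, against 13.75, 13.59, 12.98 and 13.80, a difference of 0.07 (SE 0.46, adjusted p = 0.944). Of the target genes, the repressor Hey1 had 10.08 and 9.54, against 13.74, 13.80, 11.79 and 13.70, and fell by 3.44 (SE 0.72, adjusted p = 0.00147). Its relative Heyl had 6.19 and 9.20, against 11.28, 11.36, 10.52 and 10.90, and fell by 3.32 (adjusted p = 0.0016). For Jag1 and for Heyl 1 of 3 probe sets was called lower. Hes1 fell by 2.35 and Nrarp, a feedback inhibitor, by 2.92. None of the 20 rose, and their median was -1.93. The same count of 8 fell without S-shaped body replicate 3, while 3 fell without proximal tubule replicate 1. Rfng, a modifier of Notch receptors, was the member with the largest positive difference, 1.75 (adjusted p = 0.0837), and was not called. Without proximal tubule replicate 1, Jag1 (-2.35), Notch1 (-1.16), Notch4 (-1.05), Hes1 (-1.57) and Heyl (-1.82) were not called, and Dll1 was not called without proximal tubule replicate 2 (-1.38) or S-shaped body replicate 1 (-2.71). Notch4 was not called either without S-shaped body replicate 2 (-1.81), 3 (-1.83) or 4 (-1.98).

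**Figure D3:**
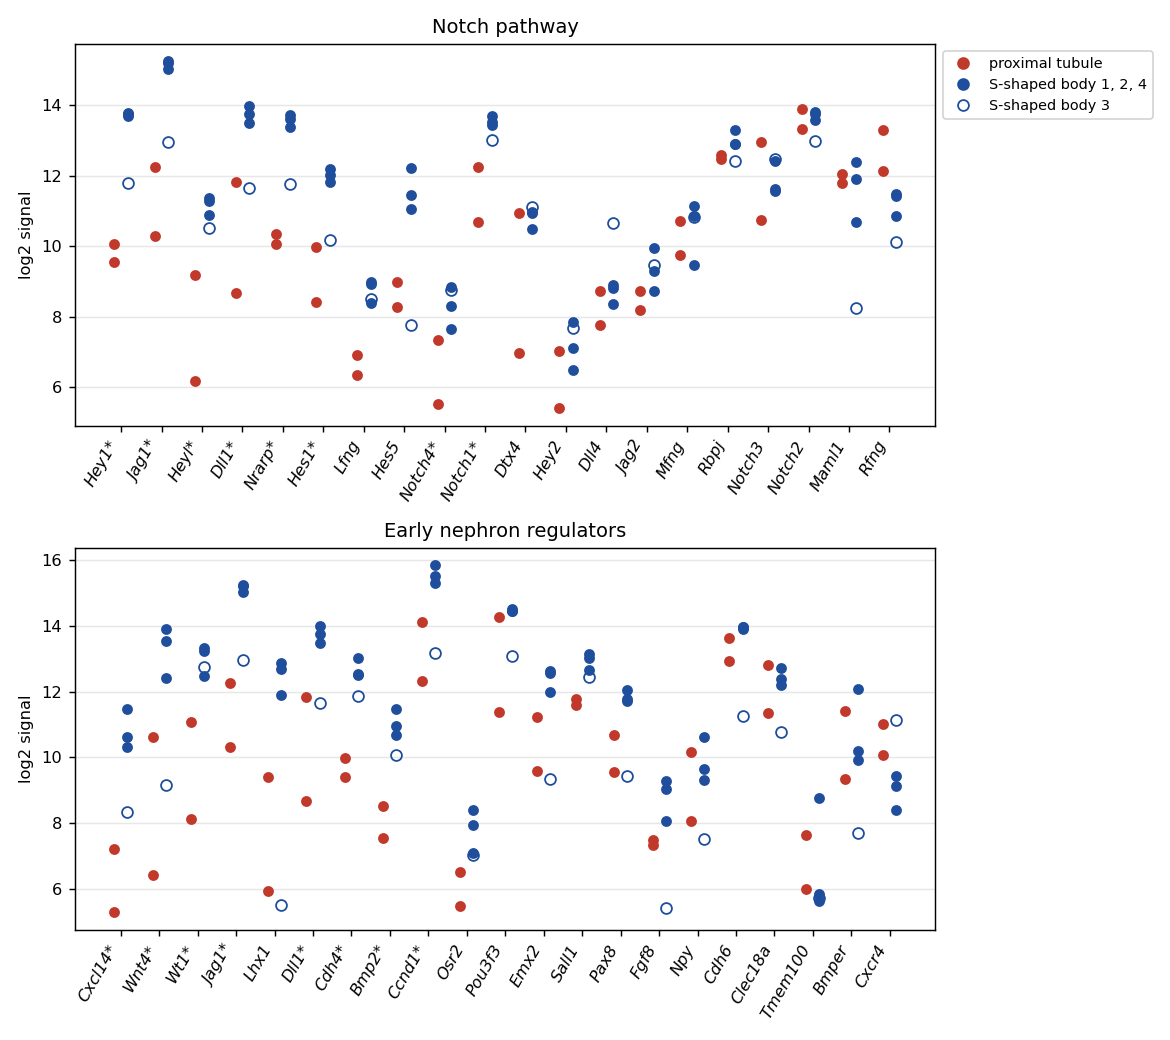
Log2 signal (vertical axis) of each measured gene of the Notch pathway list (top) and of the early nephron regulator list (bottom), ordered by fold change; asterisks mark called genes. Red points are the 2 proximal tubule arrays, filled blue points S-shaped body replicates 1, 2 and 4, and open points S-shaped body replicate 3, which lies lowest of its group for Lhx1 and Jag1.

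Regulators of early nephron patterning fell in 8 of 21 measured genes and rose in none (median -1.29). Wnt4, a secreted signal needed for mesenchyme to become epithelium, had 6.43 and 10.62 in proximal tubule, against 12.42, 13.89, 9.16 and 13.53 in S-shaped body, and fell by 3.72 (SE 1.04, adjusted p = 0.0169). Proximal tubule replicate 2 was above S-shaped body replicate 3, and without that S-shaped body array Wnt4 fell by 4.75. Lhx1 had 9.40 and 5.93, against 11.90, 12.68, 5.51 and 12.86, and was not called (adjusted p = 0.205), while 1 of its 2 probe sets was called lower; without S-shaped body replicate 3 it fell by 4.81 (adjusted p = 0.0136). The paired-box gene Pax8 was at -1.13 with no call, and fell by 1.73 without that array (adjusted p = 0.0428). Wt1, a regulator of progenitors and podocytes, had 8.12 and 11.07, against 13.32, 12.46, 12.74 and 13.23, and fell by 3.34 (adjusted p = 0.000452). The chemokine gene Cxcl14 fell by 3.93, and the cyclin gene Ccnd1 by 1.74. Cadherins differed one from another: Cdh4 fell by 2.78 (adjusted p = 0.000886), Cdh6, a cadherin of the early proximal tubule, was level at 0.01 with 12.93 and 13.63 in proximal tubule against 13.96, 13.96, 11.25 and 13.91, and Cdh2, at -2.70, and Cdh1, at -0.70, were not called. For Cdh2 1 of 2 probe sets was called lower. Without S-shaped body replicate 3, Cdh2 was called at -3.80. Cxcr4, a chemokine receptor, was at 1.01 with no call. Over the list 2 fell without proximal tubule replicate 1, and 5 without S-shaped body replicate 1 or 2. Calls ended without proximal tubule replicate 1 for Wnt4 (-1.63), Wt1 (-1.87), Cxcl14 (-2.97) and Ccnd1 (-0.85). They ended for Cxcl14 (-3.50) and Ccnd1 (-1.63) without S-shaped body replicate 1, for Wnt4 (-3.18) and Ccnd1 (-1.45) without replicate 2, and for Wnt4 (-3.30) and Ccnd1 (-1.56) without replicate 4. Cdh2 was called as well without proximal tubule replicate 2 (-4.69).

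Wnt pathway genes moved both ways, with 4 falls and 2 rises among 22 measured, where 4.27% of all genes fell and 5.64% rose. Lef1, a transcription factor and target of the pathway, had 5.62 and 10.05 in proximal tubule, against 12.18, 12.09, 10.28 and 12.60 in S-shaped body, and fell by 3.95 (SE 0.89, adjusted p = 0.0028). The secreted Wnt antagonist Sfrp2 had 12.03 and 11.73, against 15.61, 16.01, 14.59 and 15.70, and fell by 3.60 (SE 0.54, adjusted p = 2.24e-05), a fall on both tubule arrays alike. The receptor gene Fzd7 fell by 3.12. Rspo3, an agonist, rose by 3.89 (adjusted p = 0.0396), and Wnt9b, a ligand of the ureteric epithelium, by 2.36. The calls of Lef1 (-1.74) and Fzd7 (-0.71) ended without proximal tubule replicate 1. The calls of Rspo3 and Wnt9b ended without either tubule array or without S-shaped body replicate 1, 2 or 4: Rspo3 was at 3.36 to 4.01 and Wnt9b at 2.15 to 2.58 in those fits, and without S-shaped body replicate 3 they were called at 4.92 and 2.43. None of 15 measured genes of Fgf and receptor tyrosine kinase feedback was called by limma. Fgfr4 had the largest difference, 1.84 (adjusted p = 0.082). At an unadjusted p under 0.05, 1 was higher and 1 lower, where 13.6% of all genes were higher and 11.1% lower.

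Several podocyte and distal genes were lower in the tubule. In bulk samples of this kind, fewer cells of a type and less RNA per cell cannot be told apart. Podocyte genes fell in 7 of 21 measured and rose in none (median -1.48), or in 5 without S-shaped body replicate 3 and 3 without proximal tubule replicate 1. Ptpro, a podocyte phosphatase, had 5.78 and 10.32 in proximal tubule, against 13.62, 12.58, 16.06 and 12.73 in S-shaped body, and fell by 5.69 (SE 1.01, adjusted p = 0.000221). Synpo, which organises actin in podocyte foot processes, had 9.23 and 6.57, against 10.80, 9.65, 14.99 and 11.21, and fell by 3.76 (adjusted p = 0.0234). In Synpo S-shaped body replicate 3 stood over 3 units above its group, and without it the call ended (-2.65, adjusted p = 0.0849). Dach1 and Plce1, a transcription factor and a phospholipase of the podocyte list, fell by 5.87 and 4.42. Neither was confined to the renal corpuscle, the component that holds podocytes. The component mean of Dach1 was 13.81 there, 13.87 in medullary interstitium and 13.59 in ureteric tip, but 8.18 in metanephric mesenchyme. That of Plce1 was highest in renal corpuscle, at 12.63, against 11.998 in medullary interstitium and 9.80 in ureteric bud. Podxl, a podocyte surface protein, had 14.17 and 11.03, against 13.88, 12.93, 16.41 and 13.26, and Nphs1 6.90 and 7.79, against 7.69, 7.67, 12.27 and 7.64; neither was called. In both genes S-shaped body replicate 3 was the highest array. The summed normalized signal of the podocyte list, on the linear scale, was 57030 and 59056 in proximal tubule, against 87943 to 416493 in S-shaped body, where replicate 3 gave the highest. In the loop and distal list 2 of 17 fell, Tfap2b by 4.75 and Sim1 by 3.24, both transcription factor genes. Of all genes 4.27% fell. The iroquois genes Irx1 and Irx2, known from the intermediate part of the S-shaped body, were at -0.03 and -2.33 with no call. Irx2 had 9.28 and 8.49, against 11.04, 11.16, 11.53 and 11.13, without overlap (adjusted p = 0.061). Without proximal tubule replicate 1, Ptpro (-3.42) and Tfap2b (-3.45) were not called, and without replicate 2 Synpo was not (-2.43).

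Many falls lay outside the podocyte and other lists. Ndnf, a secreted neuron-derived factor, had 5.89 and 7.24 in proximal tubule, against 14.53, 14.19, 13.22 and 14.10 in S-shaped body, and fell by 7.44 (SE 0.85, adjusted p = 4.26e-07). Both tubule arrays were over 5 units below every S-shaped body array, and 1 of 2 Ndnf probe sets was called. The adhesion genes Pcdh19 and Pcdh17 fell by 5.52 and 5.28, the gap junction gene Gja3 by 5.63, the secreted hormone gene Stc2 by 5.35, and the protease gene Plau by 5.22. Myct1 and Clec1a, genes known from endothelium, fell by 5.52 and 5.81. Broadly expressed genes were also here: Thoc2, of messenger RNA export, fell by 6.46, Rpe, a pentose phosphate enzyme, by 5.83, and Gopc, of Golgi traffic, by 5.44. Probe sets of 1 gene often disagreed. Of the genes named in this report, Cox8a, Stc2 and Pcdh19 were called with 1 of 3 probe sets, and Tpx2 with 1 of 4. Genes called with 1 of 2 included Wnt4, Cxcl14, Sim1, Cldn2, Mep1a, Slc7a13, Esrra, Traf1, Gja3, Plau, Pcdh17 and Clec1a. Of 451 genes called lower that had several probe sets, 48 were called with all of them and 295 with 1; of 323 called higher, 79 and 205. Thoc2 was called with 2 of 3 probe sets, Rpe with 1 of 2 and Gopc with 1 of 3. Component means of Gopc were 6.40 to 7.92 in the E11.5 and E12.5 components, whose Actb ratios were also high. They were 11.94 to 12.87 in the E15.5 components other than proximal tubule. Dach1 was at 8.18 to 9.70 and at 12.48 to 13.87 in the same sets, and Rpe at 8.23 to 11.06 and at 11.68 to 13.14. Thoc2 was at 10.24 in metanephric mesenchyme, 9.13 in ureteric bud and 12.83 in renal vesicle. In the E15.5 components other than proximal tubule Thoc2 was at 13.01 to 14.37. With the Actb ratio in the fit Gopc was at -4.91 and Dach1 at -6.11, both called. The part of RNA quality in these falls was not tested further. Xist, expressed from the inactive X chromosome of females, had 7.33 and 10.17 in proximal tubule, against 15.82, 13.34, 16.43 and 15.30 in S-shaped body, and fell by 6.47 (adjusted p = 0.0494). The Y-linked Eif2s3y had 10.61 and 9.61, against 9.89, 11.45, 9.54 and 10.27, with overlap. The call of Xist ended without either proximal tubule array (-5.05 without replicate 1, -7.89 without replicate 2) and without S-shaped body replicate 1 (-6.27), 3 (-6.06) or 4 (-6.44).

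Cell cycle genes fell in part: 11 of 31 measured fell and none rose, with a median of -1.15, and 30 of the 31 had a negative difference. Pcna, the clamp of DNA replication, had 12.38 and 12.37 in proximal tubule, against 15.43, 15.00, 14.85 and 15.83 in S-shaped body, and fell by 2.91 (SE 0.34, adjusted p = 6.49e-07). Both tubule arrays were at the same level and lay over 2 units below every S-shaped body array. Mki67, the proliferation marker, had 13.09 and 13.81, against 15.12, 15.27, 14.83 and 15.18, and fell by 1.65 (SE 0.40, adjusted p = 0.00596). The licensing genes Cdc6 and Mcm3 fell by 2.27 and 2.02, and the spindle gene Tpx2 by 2.07. Cdkn1a, the inhibitor p21, had 12.95 and 13.16, against 10.10, 9.01, 11.90 and 8.29, and rose by 3.23 (SE 0.67, adjusted p = 0.00131). The counts depended on single arrays, with 19 falls without proximal tubule replicate 2, 16 without S-shaped body replicate 3, 6 without S-shaped body replicate 4 and 3 without proximal tubule replicate 1. In that last fit Mki67 (-1.29), Cdc6 (-1.22), Mcm3 (-1.52) and Tpx2 (-1.37) were not called. The summed signal of the list was 118566 and 341764 in proximal tubule replicates 1 and 2, against 282499 in S-shaped body replicate 3 and 505293 to 612170 in the other 3.

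**Figure D4:**
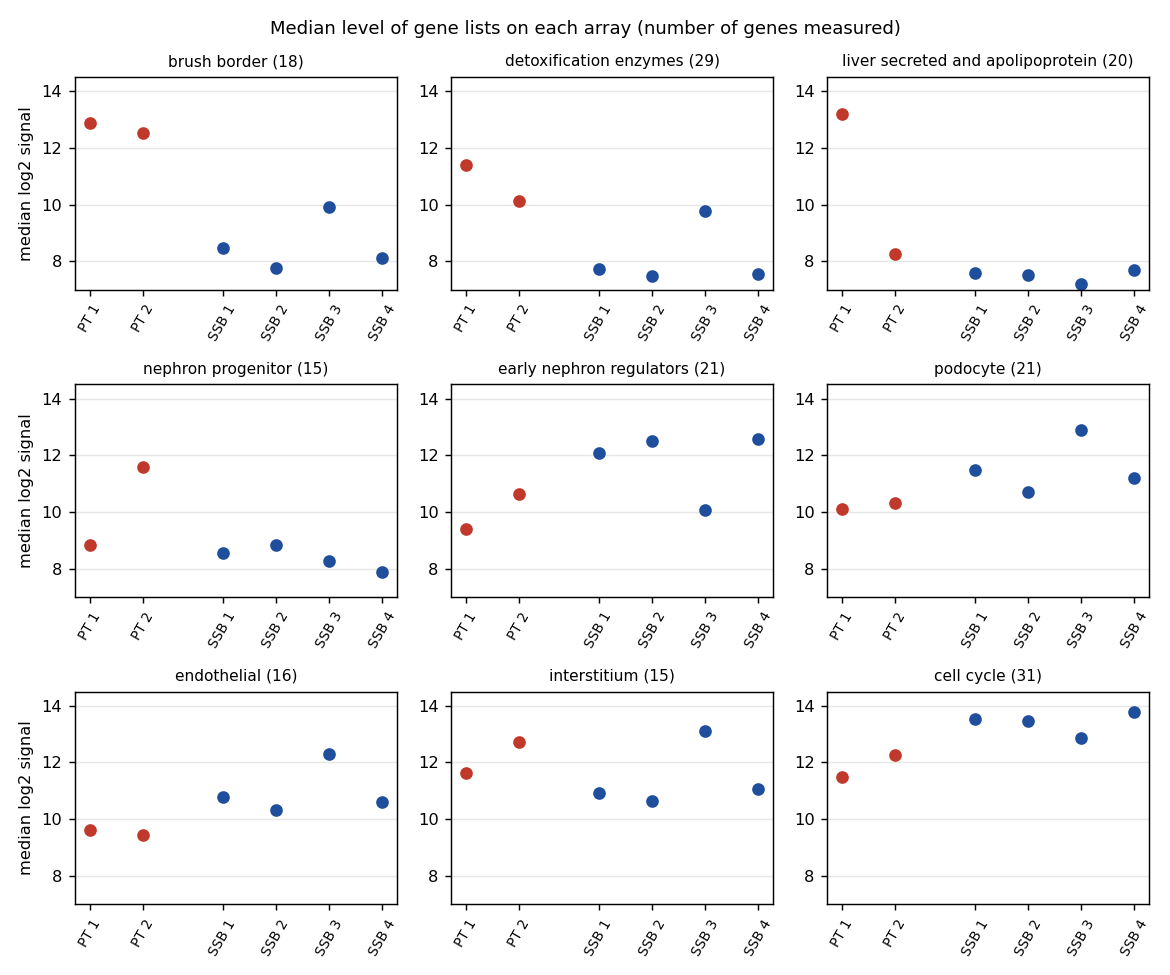
Median log2 signal of 9 gene lists (panels, with the number of genes measured) on each array, with the 2 proximal tubule arrays in red on the left and the 4 S-shaped body arrays in blue on the right. Liver secreted genes separate proximal tubule replicate 1 (13.21) from replicate 2 (8.25), nephron progenitor genes the reverse, and the podocyte median is highest in S-shaped body replicate 3 (12.90).

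Junction genes moved one by one. Of 23 claudin and tight junction genes 3 rose and 1 fell, where 5.64% of all genes rose and 4.27% fell. No rise was called without proximal tubule replicate 1, and 1 was called without replicate 2 or with the Actb ratio in the fit. Tjp3, a junction scaffold, had 10.34 and 10.46 in proximal tubule, against 6.42 in S-shaped body replicate 3 and 8.46 to 8.56 in the other 3, and rose by 2.42 (adjusted p = 0.0282), a call that ended without either tubule array (2.48 without replicate 1, 2.36 without replicate 2) or S-shaped body replicate 3 (1.89). Cldn2, the cation and water pore of the proximal tubule, had 14.69 and 14.34 in proximal tubule, against 11.74, 9.54, 14.17 and 10.19 in S-shaped body, and rose by 3.10 (adjusted p = 0.0339); S-shaped body replicate 3 lay within 1 unit below both tubule arrays. Cldn10, an anion-selective claudin in this segment, had 14.11 and 11.52, against 9.52, 7.64, 9.88 and 9.33, and rose by 3.73 (SE 0.64, adjusted p = 0.000147). Cldn5, the claudin of endothelium, had 11.38 and 11.25, against 13.85, 13.83, 14.97 and 13.52, and fell by 2.72 (adjusted p = 0.00529, or 0.0542 with the Actb ratio, which ends the call). The keratin gene Krt8 rose by 3.11. Among 26 genes of basement membrane and integrins, Frem1, a matrix gene, fell by 2.85 and the integrin gene Itga6 by 1.51, and none rose. Of all genes 4.27% fell. Without proximal tubule replicate 1, Cldn2 (2.92), Cldn10 (2.43), Krt8 (3.37) and Frem1 (-2.13) were not called, nor without replicate 2 Cldn2 (3.27), Krt8 (2.85) and Itga6 (-0.58). Without S-shaped body replicate 2 or 4 the calls of Cldn2 (2.48 and 2.69) and Krt8 (2.83 and 2.81) ended, and without replicate 1 or 4 that of Itga6 (-1.45 and -1.43).

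Markers of other cells differed between single arrays or between the groups. Nephron progenitor genes had a median of 8.84 in proximal tubule replicate 1 and 11.58 in replicate 2, against 7.90 to 8.84 in S-shaped body. Of 15 measured, 2 rose, Traf1 by 3.75 and Crym by 2.94, and none fell, where 5.64% of all genes rose. Neither was confined to metanephric mesenchyme. The component mean of Traf1 was 8.22 there and 10.28 in medullary collecting duct. That of Crym was 12.21 in metanephric mesenchyme, 11.87 in medullary interstitium and 11.79 in ureteric tip. Six2, the defining regulator of nephron progenitors, had 8.52 and 13.09 in proximal tubule, against 8.52, 8.84, 8.28 and 8.59, and Gdnf, their signal to the ureteric bud, 8.26 and 13.57, against 10.23, 10.64, 5.72 and 6.44; neither was called, although Six2 was without proximal tubule replicate 1 (4.53). Ret, the Gdnf receptor of the ureteric tip, had 5.41 and 11.33, against 6.60, 5.36, 6.82 and 6.65, and was not called. Six2, Gdnf and Ret were chosen after their values were seen, and all were higher in proximal tubule replicate 2 than in replicate 1. Traf1 lost its call without proximal tubule replicate 2 (2.75), and Crym without any single array but S-shaped body replicate 3, at 2.74 to 3.08. In the ureteric and collecting duct list 2 of 17 rose, Wnt9b and Aqp3 (2.64), where 5.64% of all genes rose. The list's summed signal was 18199 and 23632 in proximal tubule, against 3776 to 11182 in S-shaped body. Aqp3 lost its call without proximal tubule replicate 1 (2.15), S-shaped body replicate 2 (2.15) or S-shaped body replicate 4 (2.23). Endothelial genes fell in 1 of 16, Cldn5, where 4.27% of all genes fell, with a summed signal of 17019 to 17956 in proximal tubule, against 38479 to 108767 in S-shaped body, without overlap. Interstitial genes rose in 1 of 15, Ntn1 by 4.09, where 5.64% of all genes rose, and summed to 110951 and 142201, against 51424 to 246966, the highest again in S-shaped body replicate 3. Ntn1 was not called without proximal tubule replicate 1 (4.28) or 2 (3.91) or S-shaped body replicate 1 (3.64) or 4 (3.76). By limma none of 13 macrophage, 9 erythroid or 8 mesangial and mural genes was called. At an unadjusted p under 0.05, 2 macrophage and 2 erythroid genes were higher and 1 mesangial or mural gene was lower. Of all genes tested, 13.6% were higher and 11.1% lower at that p. Csf1r, the macrophage growth factor receptor, had 14.60 and 13.07, against 8.10, 10.05, 14.33 and 10.88, and was called at 4.16 without S-shaped body replicate 3. Klf1, of red cell precursors, was at 2.11 and Rgs5, of mural cells, at -1.95, neither called; Klf1 was called at 3.49 without proximal tubule replicate 2. Of 15 immediate early and heat shock genes Jun fell by 1.89 (adjusted p = 0.00159) and none rose, where 4.27% of all genes fell. Of 5 neural genes 1 rose, Tubb3 by 2.61, where 5.64% of all genes rose. The call of Tubb3 ended without proximal tubule replicate 2 (1.11) and without S-shaped body replicate 1 (2.70), 2 (2.57) or 4 (2.48). The part of these other cells in the results was not tested.

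With the Actb ratio in the fit, the rises numbered 4 in endocytosis, 7 in amino acid transport, 8 in the brush border and 5 in fatty acid oxidation, against 7, 11, 12 and 10 without it. Of the 22 glucose, phosphate and salt carriers 13 rose in that fit, and of the 29 detoxification genes 13. Of 106 genes named by rule and called, 80 stayed called. Mep1b (4.85, adjusted p = 0.0782) and Mep1a (3.25, adjusted p = 0.0863) were not called in that fit. Nor were the other proximal tubule genes Lrp2, Amn, Slc15a2, Slc7a9, Slc1a1, Pdzk1, Slco1a6, Cdhr5, Ush1c, Slc27a2, Acaa1b, Vdr and Cldn2. Further rises that were not called with the Actb ratio were those of Traf1, Crym, Krt8, Tjp3, Rspo3, Ntn1 and Tubb3. Falls that were not called were those of Sdhd, Cyp4b1, Dll1, Hes1, Synpo, Cldn5, Mcm3 and Itga6. Dab2 (3.25), Fgfr4 (2.503), Klf1 (3.29) and Alb (4.72) were called higher in it.

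The called genes were then followed in the 7 other components. The 886 genes called higher had a median component mean of 11.48 in proximal tubule, against 8.34 in S-shaped body, and 8.16 in renal vesicle to 8.64 in ureteric bud among the rest. The proximal tubule held the highest of the 9 component means for 800 of them (90.3%), against 24.0% of all genes. The 671 genes called lower had a median of 9.80 in proximal tubule, against 12.32 in S-shaped body and 11.76 to 12.14 in the other 7. For 585 of them (87.2%) the proximal tubule held the lowest mean, against 19.5% of all genes. The choice of called genes makes a high or low proximal tubule mean likely, and a mean of 2 arrays is an extreme more often than a mean of more. A gene could also pass the filter through its 2 proximal tubule arrays alone, so these shares are descriptions. The S-shaped body held the highest mean for 104 of the 671.

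**Figure D5:**
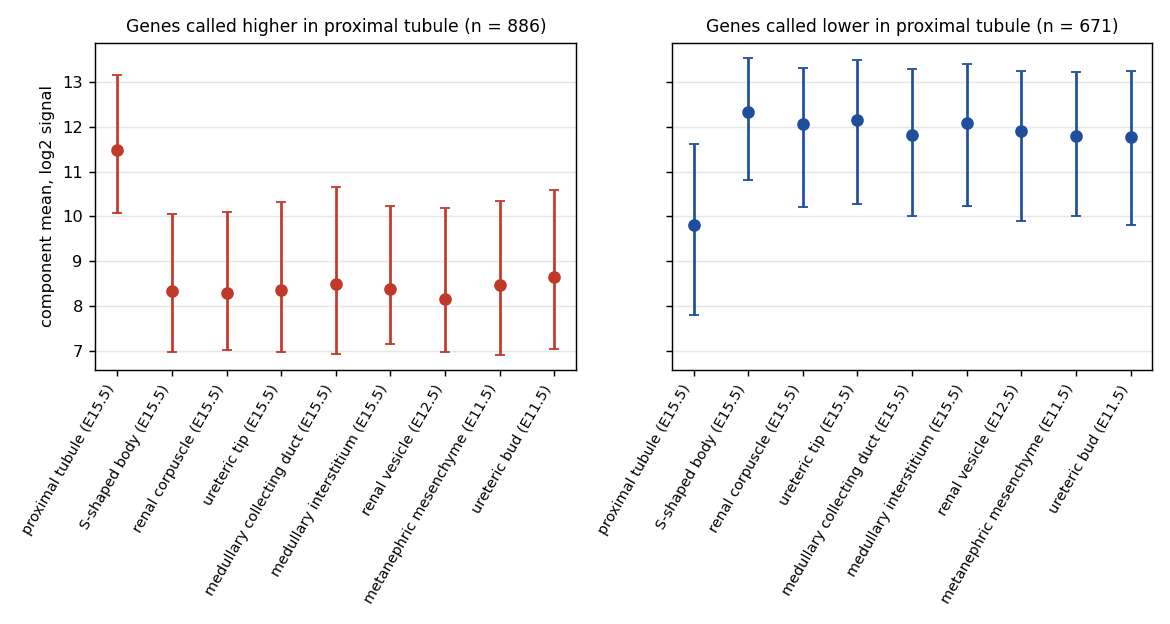
Median (point) and quartiles (bars) over genes of the component means of log2 signal in the 9 components, for the 886 genes called higher (left) and the 671 called lower (right) in proximal tubule against S-shaped body; the embryonic day is given with each name. On the left the proximal tubule stands above the other 8 components and on the right below them.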

How the data were processed

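The 2 proximal tubule and 4 S-shaped body arrays were measured on the mouse 430 2.0 array with the other 31 arrays of the series. The deposited values are linear signal intensities per probe set, made by the authors with GCOS, per the submitters' processing notes. In every file the mean after leaving out 2% of values at each end was 1500, so the deposited intensities had been scaled to a common target. The number of arrays limits precision. The 20th percentile of the pooled intensities, 34.62, was added to each value, then log2 and quantile normalization over 37 arrays were applied. Probe sets above 7.89 on the log2 scale on at least 2 arrays were kept, and each of 15709 genes was represented by the probe set of highest mean. Of 45101 probe sets 34945 had 1 gene symbol, 932 several and 9224 none, and only those with 1 were named. limma 3.58.1 in R 4.3.3 fitted 1 mean per component over all 37 arrays, with 28 residual degrees of freedom, and p-values were adjusted by Benjamini-Hochberg over all genes. A gene was called at an adjusted p under 0.05 with a change of at least 1 on the log2 scale. The method was tested on simulated data, drawn as independent normal values with 1 spread per gene. Such data hold no array that departs from its group and no shift in RNA quality, so that test cannot speak to these limits. Motifs were searched in RefSeq promoters of GRCm38.p6.

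The comparison, the gene lists and their members were chosen with earlier results of these data known. There were 33 lists of 633 genes, of which 585 were analysed here. By rule the text names the 14 largest calls in each direction whose arrays do not overlap, up to 5 members of each list and a set of well-known genes, 144 in all. Slc7a9, Slc6a18, Slc1a1, Slc5a2, Aqp1, Pdzk1, Cdhr5, Vil1, Myo7b, Ush1c, Hadha, Acadm, Cpt1a, Notch1, Notch4, Hes1, Nrarp, Fzd7, Alb, Apoa1, Fgb, Six2, Gdnf, Ret and Eif2s3y lie outside that rule and were named after their values were seen. Alternatives changed the offset, normalization, filter, probe set, weights, arrays in the fit, date code, replicate block and threshold, and left out each array in turn.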

Additional observations from a re-analysis of the deposited data

Results flagged for a closer look

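Among the 4 S-shaped body arrays, 1 array stood far from the other 3 for 19 of the 144 genes named by rule, where chance flags about 1 in 20 groups. In 18 of the 19 it was S-shaped body replicate 3, so these are not independent of each other.

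Replicate 3 was above the others for carriers of the proximal tubule, with 12.10 for Slc22a2, 13.30 for Slc22a19, 12.07 for Slc7a13 and 12.03 for Slc23a1, where the other 3 arrays lay below 7. It was above them as well for the enzymes Pcx (11.60), Agxt2 (10.99), Bhmt (10.24), Sult1d1 (9.65) and Nat8 (9.12). Traf1, of the progenitor list, was at 8.08 in it, against 5.37 to 5.47 in the rest, and the podocyte gene Nphs1 at 12.27.

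Replicate 3 was below the others for genes that pattern the early nephron, with 12.96 for Jag1, 11.79 for Hey1, 5.51 for Lhx1 and 9.43 for Pax8. Cdh6, a cadherin of the early proximal tubule, was also lowest in replicate 3, at 11.25. Cdh6 lay between 13.91 and 13.96 in the other 3. The junction gene Tjp3 (6.42) and the matrix gene Frem1 (11.87) were also lowest in it.

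The remaining gene was Slc13a3, at 5.98 in S-shaped body replicate 1, against 7.13 to 7.33 in the other 3.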

How the results depend on the processing

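Of 1557 genes called (886 higher, 671 lower), the count was 511 with array weights (301 higher, 210 lower), 156 with only the 6 arrays compared (93 and 63), 829 with only arrays of E15.5 (483 and 346), 81 with the title date code as a fixed term (17 and 64) and 741 at an adjusted p under 0.01 (436 and 305). Leaving out arrays gave 876 to 2038 calls, 446 to 1050 higher and 430 to 1045 lower; the lowest were without proximal tubule replicate 1. Without S-shaped body replicate 3 and proximal tubule replicate 1 together 568 were higher. The replicate block by title number, whose meaning the labels do not give, gave 1433 calls. Of 106 named genes called, 98 stayed called in that fit, 70 with array weights, 79 with only E15.5 arrays, 34 with only the 6 arrays and 8 with the date code. The fit with the date code as a fixed term used only arrays whose titles hold such a code. Cyclic loess called 1191 higher and 583 lower, so that 67.1% of its calls were higher, against 56.9%, and its median over all genes was 0.21, against 0.08. With the probe set of largest variance Ezr was at 2.74 and Cox8a at -0.29, the opposite sign. The limits are 2 proximal tubule arrays that differ from each other, 1 S-shaped body array that goes against its label, and pools of unstated animals. The cause of these differences was not tested.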
